A study of Mus musculus with 6 samples.

Results

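The replication-dependent histone genes were followed in colon tumors of 2 mouse genotypes as 52 probe sets, of 35556 on the array and 23410 with a gene symbol. A probe set belonged to the group when at least 1 of its platform symbols started with H2ac, H2bc, H3c or H4c and a number, or was H1f1 to H1f5, a rule that works on symbols alone. The double KO tumors had the genotype CDX2P-G19Cre;Apcflox/flox;Tgfbr2flox/flox, and the Apc KO tumors CDX2P-G19Cre;Apcflox/flox. There were 3 samples of each genotype, from C57BL/6J mice 3 weeks old, and RNA of laser-dissected tumor tissue from each was hybridized to 1 Affymetrix Mouse Gene 1.0 ST array. Both genotypes therefore carried the floxed Apc alleles and the same Cre. As stated, the genotypes differed only in the Tgfbr2 alleles, in which Cre removes exon 2. Other differences between the mice, which came from crosses of several lines, were not examined. Cre is driven by a fragment of the human CDX2 promoter, active in colon epithelium, and becomes functional only in the cells where its reading frame is restored by chance, so a tumor sample can hold stroma and epithelium in which nothing was deleted. Signals were the deposited log2 values after robust multichip analysis (RMA), in which 1 unit is a 2-fold difference.

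Histones package DNA into nucleosomes: H2A, H2B, H3 and H4 form the core around which DNA is wound, and H1 binds the linker between cores. Most of this protein is made in S phase from clustered genes without introns, whose mRNAs end in a stem-loop in place of a poly(A) tail. SLBP binds the stem-loop, the U7 small nuclear RNP directs the cleavage that forms this end, and NPAT, a target of cyclin E and CDK2, activates the genes. TGF-β, the ligand of the receptor encoded by Tgfbr2, slows the entry of epithelial cells into S phase.

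RefSeq (GRCm38.p6) lists 64 mouse genes under the rule, and 62 of them were named on the array. Of these, 26 had a probe set of their own and 36 were named only on sets with several symbols, because the coding sequences of these genes are nearly identical. The 26 sets with several symbols are called shared sets here, and no level of theirs can be given to a single gene. A sole symbol does not show that a set measures only 1 gene. The H4c4 set had 13.24, 13.19 and 13.45 in double KO tumors and 13.26, 13.21 and 12.88 in Apc KO tumors. A shared H4 set had nearly the same values, 13.28, 13.16 and 13.48 against 13.23, 13.20 and 12.93. By class, there were 4 probe sets for H1, 6 for H2A (2 shared), 16 for H2B (7 shared), 13 for H3 (10 shared) and 12 for H4 (6 shared). H1f4 was named only on a set with H2bc6, which was put in no class. The 10 shared H3 sets all carried the same 12 symbols, and among the shared sets 1 pair for H2B and 1 pair for H4 held identical values, so the sets of a class are not independent measurements. The shared H2A sets also carried the symbols H3c4, H2ax and H2af-ps2, and the brighter of them H2aj. The shared H2B sets also carried H4bc24. Apart from H3c4, these 4 symbols lie outside the rule.

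The promoters are shown because the classes compared below are transcribed from different upstream elements. RefSeq (GRCm38.p6) windows of 250 bases before the start were available for 57 of the genes, 58 windows in all, of which 50 lay on chromosome 13 and 8 on chromosome 3. The letters searched, on both strands, were TATAAA for the TATA box, CCAAT for the box of that name, AAACACA for the H1 box, ATTTGCAT for the octamer and, as the last, GGTCCG, the core of the H4 element. Matches are in capitals, no match overlaps another in the windows printed, and a match reads reversed and complemented where it lies on the opposite strand. The windows of H1f1 and H1f2 (linker histones), H2ac4 (H2A), H2bc3 (H2B) and H4c3 (H4) were chosen after their values had been seen, as they belong to genes described below.
H1f1 (GRCm38.p6, chr13:23763418-23763667, + strand): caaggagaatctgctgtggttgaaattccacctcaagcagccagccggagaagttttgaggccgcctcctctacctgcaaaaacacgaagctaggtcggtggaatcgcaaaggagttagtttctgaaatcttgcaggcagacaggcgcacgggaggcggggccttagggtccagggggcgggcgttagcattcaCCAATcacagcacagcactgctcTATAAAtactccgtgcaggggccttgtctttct
H1f2 (GRCm38.p6, chr13:23738557-23738806, + strand): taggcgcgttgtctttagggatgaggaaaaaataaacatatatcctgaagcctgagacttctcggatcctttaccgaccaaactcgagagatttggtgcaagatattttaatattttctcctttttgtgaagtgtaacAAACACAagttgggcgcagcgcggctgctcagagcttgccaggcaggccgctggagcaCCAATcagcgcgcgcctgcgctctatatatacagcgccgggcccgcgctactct
H2ac4 (GRCm38.p6, chr13:23750838-23751087, + strand): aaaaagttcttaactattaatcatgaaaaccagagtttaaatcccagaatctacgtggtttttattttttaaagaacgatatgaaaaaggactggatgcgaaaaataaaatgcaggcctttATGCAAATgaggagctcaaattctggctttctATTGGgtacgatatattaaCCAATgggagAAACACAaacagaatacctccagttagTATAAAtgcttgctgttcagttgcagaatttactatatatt
H2bc3 (GRCm38.p6, chr13:23746484-23746733, + strand): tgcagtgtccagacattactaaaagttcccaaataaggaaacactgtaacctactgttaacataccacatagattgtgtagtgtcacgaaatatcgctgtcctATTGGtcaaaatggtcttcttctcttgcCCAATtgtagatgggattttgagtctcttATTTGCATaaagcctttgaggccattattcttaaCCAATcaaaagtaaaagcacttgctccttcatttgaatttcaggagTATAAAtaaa
H4c3 (GRCm38.p6, chr13:23698459-23698708, - strand): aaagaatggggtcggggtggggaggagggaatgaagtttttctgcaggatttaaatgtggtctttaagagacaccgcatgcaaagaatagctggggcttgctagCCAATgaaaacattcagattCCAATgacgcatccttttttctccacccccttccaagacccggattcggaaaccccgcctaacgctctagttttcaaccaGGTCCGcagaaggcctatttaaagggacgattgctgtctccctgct

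CCAAT was found in 48 of the 58 windows, against 33.8% of all 32851 windows of the same length, and TATAAA in 28 of 58 against 12.4%. CCAAT stood in all 5 H1, 17 H2A and 15 H2B windows and in 8 of 10 H3 windows, but in 3 of 11 H4 windows. The octamer, bound by OCT1 at H2B promoters in S phase, was present in 7 of 15 H2B and 6 of 17 H2A windows and in none of the other 3 classes, against 1.6% of all windows. GGTCCG was found in 8 of 11 H4 windows, 1 H2B window and 1 H3 window, against 6.72% of all. AAACACA was found in 4 of 5 H1 windows, 2 H2A windows and 2 H2B windows, against 6.25% of all, and the H1 window without it was that of H1f1. A match describes only these letters in this window.

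Depth has no counterpart on arrays, and the number of arrays limits the precision. The median log2 signal per array was 7.68 to 7.80. Tgfbr2 had a log2 signal of 10.98, 10.35 and 10.47 in double KO tumors 1, 2 and 3, against 11.35, 11.37 and 11.09 in Apc KO tumors, and the place of its probes relative to the deleted exon was not examined. Double KO tumor 2 stood apart, with correlations of 0.956 to 0.968 with the other arrays, against 0.980 to 0.988 among the other 5. It had the highest mean log2 level of 7 colonocyte markers (12.08, against 8.67 to 9.84 in the other 5 tumors) and of 8 smooth muscle markers (10.72, against 8.13 to 8.84). General markers of colon epithelium were high in every tumor, with a mean log2 level of 12.07 to 12.20 in double KO tumors and 11.75 to 12.15 in Apc KO tumors. In bulk tissue, fewer cells of a type and less RNA per cell cannot be told apart.

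Nearly every histone probe set had a higher mean in double KO than in Apc KO tumors, by a small amount. This held for 51 of 52 sets, against 52.3% of the 19506 sets tested, and the median difference was 0.31 on the log2 scale (1.24-fold), against 0.01 over all sets tested. Differences extended from −0.27 for H2bc21, a core histone H2B gene, to 1.03 for H1f1, the gene of linker histone H1.1. Probe sets were tested when they had a symbol and a mean of at least 5.88, the 20th percentile, which 50 of the 52 sets reached. None of these 50 had a Benjamini-Hochberg adjusted limma p under 0.05, and the background was 0.0%.

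At an unadjusted limma p under 0.05, 12 of the 50 sets were higher in double KO tumors (24%, against a background of 1.78%) and 0 were lower (background 3.82%). Every double KO tumor lay above every Apc KO tumor in 17 of the 52 sets (32.7%, background 5.25%), and the reverse occurred in 0 (background 6.94%). With 3 tumors per genotype, 0.1 is the smallest two-sided p of the exact permutation test, and it is the p of these 17 sets. The 12 became 2 without double KO tumor 1 (background 1.25%), 19 without double KO tumor 2 (2.22%), 5 without double KO tumor 3 (3.64%), 21 without Apc KO tumor 1 (1.22%), 5 without Apc KO tumor 2 (1.98%) and 5 without Apc KO tumor 3 (1.34%). The 17 became 44 without double KO tumor 2 (background 9.49%) and 27 without Apc KO tumor 1 (background 8.93%), and after median centring of each array the counts were 19 at the unadjusted p (background 2.08%) and 31 without overlap (background 6.61%).

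**Figure D1:**
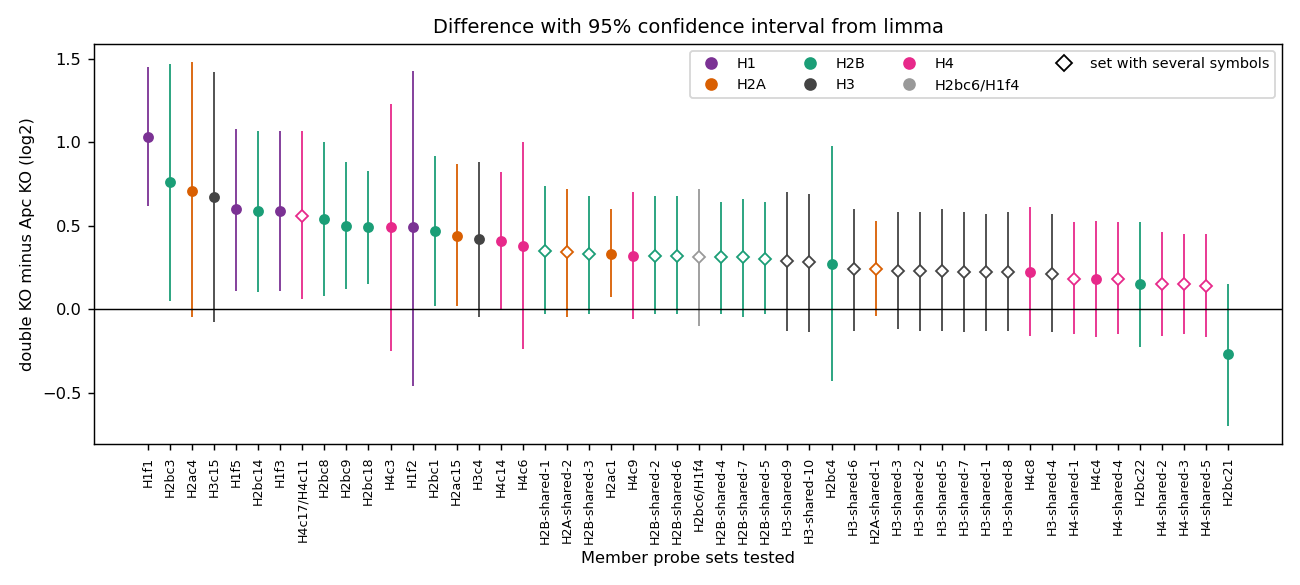
Difference between double KO and Apc KO tumors (log2, y axis) for the 50 histone probe sets tested (x axis, in order of size), with 95% confidence intervals from limma as vertical lines. Colors give the class and open diamonds the shared sets; H1f1 is at the left end at 1.03 and H2bc21 is the only set below 0, at −0.27.

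The linker histone class had the largest median difference of the 5 classes, 0.59 (1.51-fold). In double KO tumors 4 of 4 sets were higher, 3 of them at an unadjusted limma p under 0.05 (75.0%, background 1.78%). The log2 signal of H1f1, a variant most abundant in lymphoid tissue and testis, was 10.65, 10.88 and 10.70 in double KO tumors 1, 2 and 3, against 9.97, 9.77 and 9.39 in Apc KO tumors 1, 2 and 3. All double KO values were thus above all Apc KO values, by at least 0.68. The means were 10.74 ± 0.12 in double KO tumors and 9.71 ± 0.30 in Apc KO tumors (SD, n = 3 each), a difference of 1.03 (standard error 0.17, 95% interval 0.62 to 1.45) or 2.05-fold (1.53 to 2.74). Its unadjusted limma p was 0.000866, its adjusted limma p 0.821 (0.507 to 0.945 over the alternatives) and its two-sided exact permutation p 0.1. Left without Apc KO tumor 3, the difference was 0.87. H1f1 was the only histone set with both a difference of at least 2-fold and an unadjusted p under 0.05 (background 0.19%), and since the study lists this gene from these same tumors, it is not independent evidence.

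H1f5, the gene of H1.5, had a log2 signal of 11.55, 11.23 and 11.40 in double KO tumors, against 10.98, 11.02 and 10.39 in Apc KO tumors. H1f3, which encodes H1.3, had 7.66, 7.98 and 7.44 in double KO tumors, against 7.40, 7.04 and 6.87 in Apc KO tumors. Neither gene had overlapping groups, with differences of 0.60 (standard error 0.20) for H1f5 and 0.59 (standard error 0.20) for H1f3, and an adjusted limma p of 0.821 for both. H1f2, the gene of H1.2, was different: it had 11.78, 12.18 and 10.87 in double KO tumors and 11.64, 10.75 and 10.99 in Apc KO tumors. Double KO tumor 3 was below 2 of the 3 Apc KO tumors here, and the difference of 0.49 had a standard error of 0.39 (95% interval −0.46 to 1.43, adjusted p = 0.832 from limma).

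The H2A class had a median difference of 0.33 (1.26-fold), with 6 of 6 sets higher in double KO tumors (background 52.3%). Of the 5 tested, 2 were higher at an unadjusted limma p under 0.05 (background 1.78%). H2ac1, the gene of the H2A variant of testis, had a log2 signal of 8.62, 8.53 and 8.73 in double KO tumors, against 8.33, 8.18 and 8.37 in Apc KO tumors (difference 0.33, standard error 0.11). H2ac15, a core H2A gene, had 12.18, 12.06 and 12.29 in double KO tumors, against 11.99, 11.81 and 11.40 in Apc KO tumors (difference 0.44, standard error 0.17). The groups did not overlap for either gene, and the distance between them was small for both. H2ac4, named after its values were seen, had the largest difference of the class, 0.71 (standard error 0.32), with 8.95, 8.53 and 9.08 in double KO tumors and 8.56, 8.38 and 7.47 in Apc KO tumors. Its groups overlapped, and Apc KO tumor 3 lay well below the other 5 tumors. The 2 shared H2A sets differed by 0.24 and 0.34. H2ac8, at a mean of 5.10 and with a difference of 0.32, was below the limit for testing.

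H2B had the most sets and the widest span of differences, with a median of 0.32 (1.25-fold). In double KO tumors 15 of its 16 sets had the higher mean (background 52.3%). Of these, 6 were higher at an unadjusted limma p under 0.05 (background 1.78%) and 8 were higher without overlap (background 5.25%). H2bc18, outside the large cluster of chromosome 13, had the smallest p of the class: its log2 signal was 8.84, 8.93 and 9.19 in double KO tumors, against 8.67, 8.43 and 8.40 in Apc KO tumors (difference 0.49, standard error 0.14, adjusted p = 0.821 from limma). H2bc14 had 11.86, 11.65 and 12.05 in double KO tumors, against 11.57, 11.33 and 10.90 in Apc KO tumors (difference 0.59). H2bc3 had the largest difference of the class, 0.76 (standard error 0.29), with 11.12, 11.00 and 11.45 in double KO tumors and 10.86, 10.61 and 9.80 in Apc KO tumors. Without Apc KO tumor 3, the lowest by far for this gene, the difference fell to 0.45. H2bc1, which encodes the H2B variant of testis, had 7.34, 7.36 and 7.68 in double KO tumors, against 7.26, 7.05 and 6.67 in Apc KO tumors (difference 0.47). The differences of H2bc8 and H2bc9, 2 further core H2B genes without overlap, were 0.54 and 0.50. The 7 shared H2B sets were uniform, at differences of 0.30 to 0.35 and mean levels of 12.68 to 13.34, and none had an unadjusted p under 0.05. H2bc22, another H2B gene and, like the set that follows, given after its values were seen, had the smallest positive difference of the class, 0.15 (standard error 0.16). In the set shared by H2bc6 and H1f4, an H2B and a linker histone gene, the log2 signal was 8.98, 8.78 and 8.90 in double KO tumors, against 8.77, 8.72 and 8.24 in Apc KO tumors, without overlap (difference 0.31, standard error 0.17).

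**Figure D2:**
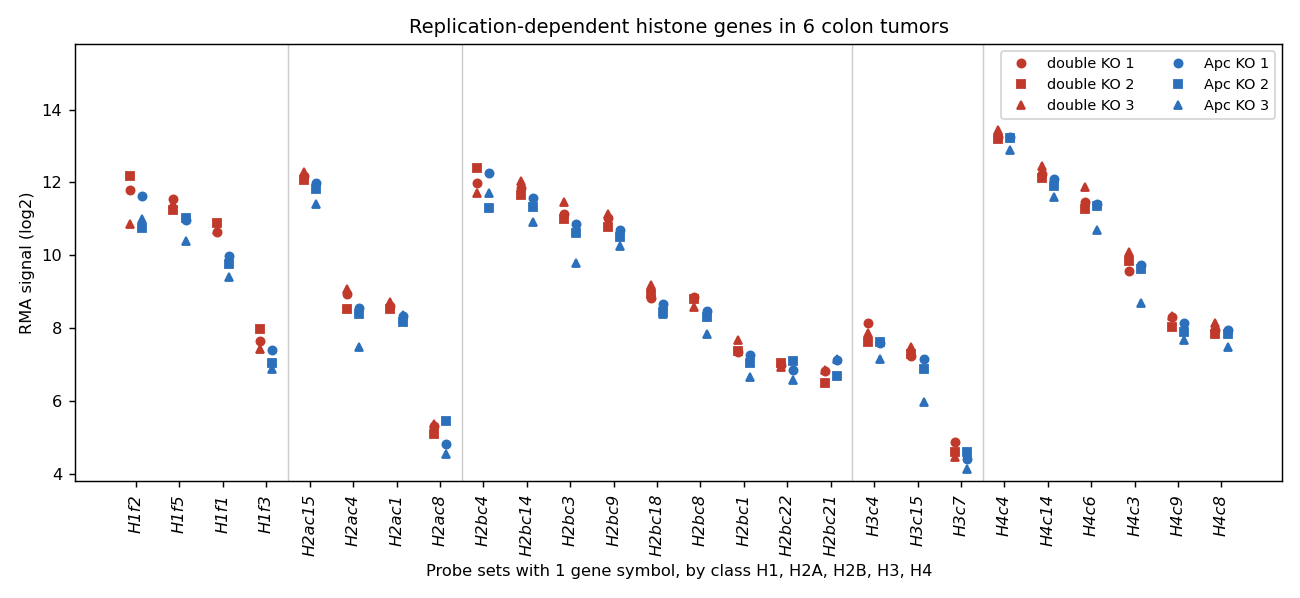
RMA log2 signal (y axis) of the 26 histone probe sets with 1 gene symbol (x axis, grouped by class and ordered by mean level), with 1 point per tumor, double KO tumors in red to the left of Apc KO tumors in blue. Apc KO tumor 3 (blue triangles) is the lowest point in 22 of the 26 sets, and H1f2, H2ac1, H2bc4 and H2bc21 are the other 4.

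For H3, 13 of 13 sets were higher in double KO tumors, with a median difference of 0.23 (1.18-fold), but 0 of the 12 tested had an unadjusted p under 0.05 (background 1.78%) and 1 of 13 had no overlap (7.69%, near the background of 5.25%). That set was H3c15, a core H3 gene, with a log2 signal of 7.23, 7.28 and 7.49 in double KO tumors, against 7.16, 6.87 and 5.97 in Apc KO tumors (difference 0.67, standard error 0.31). Without Apc KO tumor 3, the lowest for this gene, the difference was 0.32. H3c4, another core H3 gene, had 8.14, 7.61 and 7.86 in double KO tumors, against 7.58, 7.62 and 7.16 in Apc KO tumors (difference 0.42, standard error 0.19). Its overlap came from double KO tumor 2 and Apc KO tumor 2, which were nearly equal. The 10 shared H3 sets included the highest histone level of all, a mean of 13.66, above 99.7% of all probe sets on the array. Their differences were 0.21 to 0.29. H3c7, at a mean of 4.52 and with a difference of 0.25, was not tested.

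H4 had the smallest median difference, 0.20 (1.15-fold), with 12 of 12 sets higher in double KO tumors. The set shared by H4c17 and H4c11 was its only one with an unadjusted limma p under 0.05 (8.33% of the 12 sets, background 1.78%). This set had a log2 signal of 7.72, 7.32 and 7.81 in double KO tumors, against 7.35, 7.09 and 6.72 in Apc KO tumors (difference 0.56, standard error 0.21). Its groups overlapped at double KO tumor 2 and Apc KO tumor 1. Without overlap there was 1 H4 set (8.33%, near the background of 5.25%). This was H4c14, which had 12.22, 12.12 and 12.46 in double KO tumors, against 12.10, 11.89 and 11.59 in Apc KO tumors (difference 0.41, standard error 0.17). H4c3 had 9.57, 9.85 and 10.10 in double KO tumors, against 9.73, 9.62 and 8.69 in Apc KO tumors, so that a single low tumor carried most of its difference of 0.49. The H4 genes H4c4, H4c6, H4c8 and H4c9, given after their values were seen, as was H4c3, differed by 0.18, 0.38, 0.22 and 0.32, each with overlap, and the other 5 shared H4 sets by 0.14 to 0.18.

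The order of the class medians was that of the linker histones above H2A and H2B and these above H3 and H4, but the classes also differed in how many sets were shared. Over the 26 sets with 1 symbol the median difference was 0.46. Of these sets, 11 were higher at an unadjusted p under 0.05 (background 1.78%) and 13 were higher without overlap (background 5.25%). Over the 26 shared sets the median difference was 0.24, with 1 set at that p (3.85%, near the background) and 4 without overlap (15.4%). Shared sets were also the brighter ones, with a median level of 13.33 against 8.62 for sets with 1 symbol. Across sets, which are not independent replicates and come from the same arrays, the rank correlation of level and difference was −0.50 over all 52 and 0.22 over the 26 with 1 symbol. Within the sets with 1 symbol the class medians were 0.59 for H1, 0.39 for H2A, 0.49 for H2B, 0.42 for H3 and 0.35 for H4, so the order below H1 was another one. The part of the signal level and of the sharing itself in these differences was not tested.

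Centred on the 6-tumor mean, the 52 sets averaged 0.20, 0.06 and 0.26 in double KO tumors 1, 2 and 3, and 0.02, −0.10 and −0.44 in Apc KO tumors 1, 2 and 3. The groups did not overlap, but the distance between the lowest double KO tumor and the highest Apc KO tumor was far smaller than that between Apc KO tumor 3 and the other Apc KO tumors. Apc KO tumor 3 was the lowest of the 6 in 48 of the 52 sets (background 19.0%), and double KO tumor 3 was the highest in 40 (background 14.7%). Left without Apc KO tumor 3, the median difference was 0.19, 51 sets were still higher in double KO tumors (background 53.2%) and 17 did not overlap (background 12.2%). Without double KO tumor 2 it was 0.38, with 51 sets higher (background 50.5%). The class medians without Apc KO tumor 3 were 0.44 for H1, 0.23 for H2A, 0.21 for H2B, 0.12 for H3 and 0.09 for H4.

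**Figure D3:**
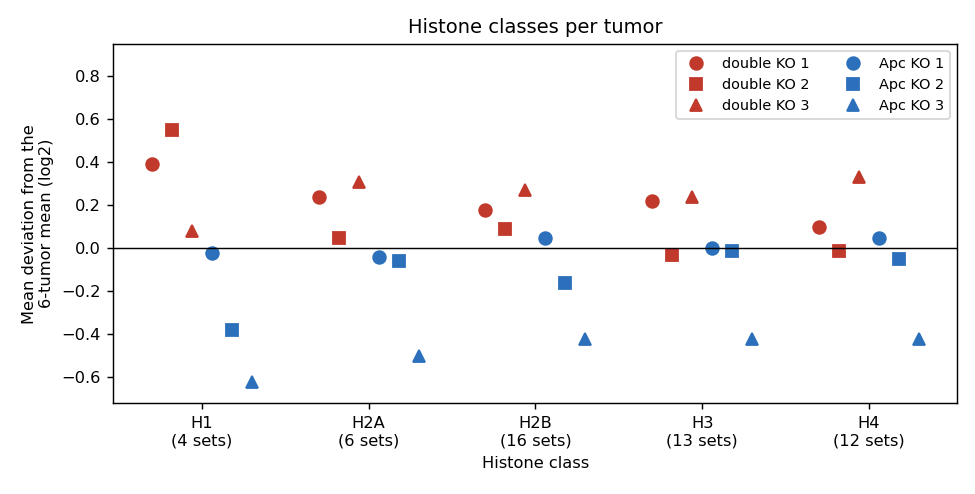
Mean deviation from the 6-tumor mean (log2, y axis) over the probe sets of each histone class (x axis), with 1 point per tumor, double KO in red and Apc KO in blue. Double KO tumor 2 is the highest tumor for H1, at 0.55, and lies at −0.03 for H3 and −0.01 for H4, while Apc KO tumor 3 is the lowest in all 5 classes.

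The mean of the 4 linker sets ranked the tumors differently from the means of the core classes. H1 averaged 0.39, 0.55 and 0.08 in double KO tumors 1, 2 and 3, and −0.02, −0.38 and −0.62 in Apc KO tumors 1, 2 and 3. H4 averaged 0.10, −0.01 and 0.33 in double KO tumors, and 0.05, −0.05 and −0.42 in Apc KO tumors. Highest for H1 was thus double KO tumor 2, which led in H1f1, H1f2 and H1f3 but in only 4 of all 52 sets (background 28.5%), and which was within the range of the Apc KO tumors for H3 and H4. The mean of H1 minus that of the 47 core sets was 0.21, 0.52 and −0.20 in double KO tumors and −0.04, −0.30 and −0.19 in Apc KO tumors. Limited to the 22 core sets with 1 symbol, it was 0.19, 0.46 and −0.22 in double KO tumors and −0.05, −0.26 and −0.11 in Apc KO tumors. Double KO tumor 3 was thus on the side of the Apc KO tumors in this measure, but its low H1 value came from H1f2. In that tumor H1f2 was at 10.87, below its mean over all tumors of 11.37. H1f1, H1f3 and H1f5 were at 10.70, 7.44 and 11.40 there, above their means of 10.23, 7.40 and 11.09. The measure was not computed without H1f2, so this placement cannot be given to the linker class as a whole.

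Apc KO tumor 3 was not the lowest tumor in 4 sets, those of H1f2, H2ac1, H2bc4 and H2bc21. For H2ac1 it was the highest of the Apc KO tumors, at 8.37, and Apc KO tumor 2 was the lowest, at 8.18. H1f2, H2bc4 and H2bc21 are known to give polyadenylated transcripts also, in differentiated cells, and the form of the transcripts was not tested here. H2bc4, named after its values were seen, had a log2 signal of 11.99, 12.40 and 11.72 in double KO tumors, against 12.27, 11.29 and 11.72 in Apc KO tumors. Its difference of 0.27 had a standard error of 0.29, and as for H1f2 the highest tumor was double KO tumor 2 and the lowest Apc KO tumor 2. These were also the tumors with the highest colonocyte markers (12.08 in double KO tumor 2) and nearly the lowest (8.71 in Apc KO tumor 2, against 8.67 in double KO tumor 3), and the part of these cells in the result was not tested. H2bc21, the only set lower in double KO tumors, had 6.81, 6.48 and 6.84 in double KO tumors, against 7.12, 6.68 and 7.14 in Apc KO tumors. The difference of −0.27 had a standard error of 0.17 and a 95% interval of −0.70 to 0.15 (adjusted p = 0.824 from limma), and Apc KO tumor 2 lay within the double KO range. Its neighbors by RefSeq order that had a set of their own were H3c15, H4c14 and H2bc18, with differences of 0.67, 0.41 and 0.49.

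**Figure D4:**
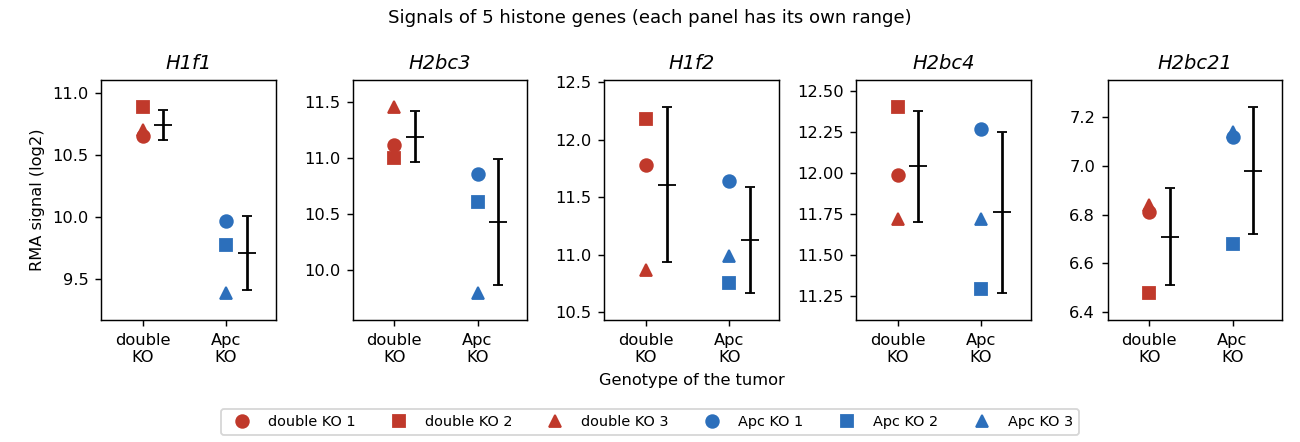
RMA log2 signal (y axis, a separate range in each panel) of H1f1, H2bc3, H1f2, H2bc4 and H2bc21 in double KO (red, left) and Apc KO tumors (blue, right), with 1 point per tumor and the mean ± SD of 3 tumors as black bars. The groups are separate for H1f1 and H2bc3 and overlap for H1f2, H2bc4 and H2bc21, the last with the lower mean in double KO tumors.

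The genes whose products transcribe, process and carry histones and their mRNAs were divided in direction, and their medians moved with double KO tumor 2. Of 19 genes of histone RNA processing and transcription, 9 were higher and 10 lower in double KO tumors, with a median difference of −0.02 (0.12 without double KO tumor 2) and 0 at an unadjusted limma p under 0.05 in either direction. Slbp, the stem-loop binding protein gene, had a log2 signal of 9.53, 9.67 and 9.90 in double KO tumors, against 9.56, 9.85 and 9.14 in Apc KO tumors (difference 0.18, standard error 0.21). Npat had 9.68, 9.16 and 9.88 in double KO tumors, against 9.61, 9.82 and 9.54 in Apc KO tumors (difference −0.08, standard error 0.20). For both genes the groups overlapped. Ccne2, the gene of a cyclin E, had the smallest p of the list (difference 0.59, standard error 0.37, adjusted p = 0.824 from limma). Among 19 histone chaperones and importers 13 were higher and 6 lower, with a median of 0.05 (0.17 without double KO tumor 2). The chaperone genes Asf1b and Nap1l1 differed by 0.54 (standard error 0.33) and −0.64 (standard error 0.34). Of 10 replication-independent histone genes, whose mRNAs are polyadenylated and made outside S phase also, 2 were higher and 8 lower, with a median of −0.08 (−0.03 without double KO tumor 2). Among them H2ax, which also gives a stem-loop mRNA in S phase, differed by 0.41 (standard error 0.29) and Macroh2a2, a gene of macroH2A, by −0.97 (standard error 0.50).

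S-phase genes were higher in double KO tumors in 17 of 19 cases, with a median difference of 0.12, and G2 and mitosis genes in 14 of 14, with a median of 0.27, but 0 of either list had an unadjusted limma p under 0.05. Without double KO tumor 2 the medians were 0.38 and 0.60. Centred on the 6-tumor mean, S-phase genes averaged 0.22, −0.43 and 0.39 in double KO tumors 1, 2 and 3, and −0.04, 0.55 and −0.69 in Apc KO tumors 1, 2 and 3. Apc KO tumor 3 was thus lowest for both S-phase genes and histone genes. Double KO tumor 2 and Apc KO tumor 2 took other places: they were at −0.43 and 0.55 for S-phase genes, and at 0.16 and −0.15 for the histone sets with 1 symbol. G2 and mitosis genes averaged 0.36, −0.49 and 0.53 in double KO tumors and −0.03, 0.42 and −0.78 in Apc KO tumors, the same order as S-phase genes except at the top. The part of the share of cycling cells in the histone differences was not tested. Of 7 CDK inhibitor genes, 4 were higher and 3 lower in double KO tumors, with 1 lower at an unadjusted limma p under 0.05 (background 3.82%). This was Cdkn1c (p57), with a log2 difference of −1.13 (standard error 0.30, adjusted p = 0.821 from limma), a gene that the study chose on these tumors.

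**Figure D5:**
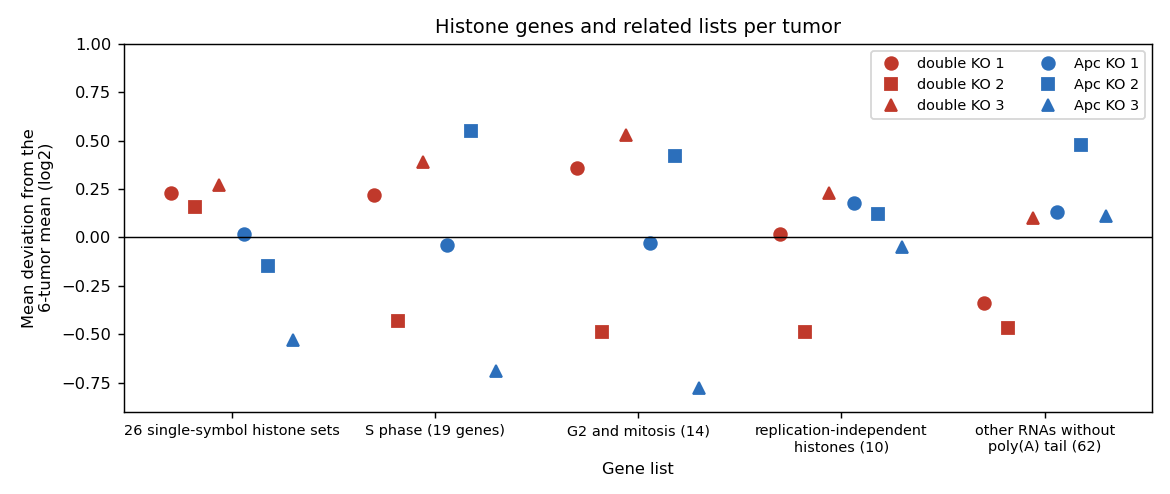
Mean deviation from the 6-tumor mean (log2, y axis) of the 26 histone sets with 1 symbol and 4 other gene lists (x axis, number of genes in parentheses), with 1 point per tumor, double KO in red and Apc KO in blue. Double KO tumor 2 lies at 0.16 for the histone sets and at −0.43 for S-phase genes; the 62 other RNAs without a poly(A) tail are higher in the Apc KO tumors, with double KO tumor 3 close to 2 of them.

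Other RNAs without a poly(A) tail (small nucleolar, small nuclear, 7SK, RNase P and RNase MRP RNAs) had differences of the opposite sign: 59 of 62 were lower and 3 higher in double KO tumors, with a median difference of −0.46 (−0.32 without double KO tumor 2). Of the 58 tested, 17 were lower at an unadjusted limma p under 0.05 (background 3.82%) and 0 higher (background 1.78%), and 19 of the 62 were lower without overlap (background 6.94%). Rnu3a, the U3 RNA of ribosomal RNA processing, had a log2 signal of 10.76, 10.77 and 10.98 in double KO tumors, against 11.94, 12.21 and 11.45 in Apc KO tumors (difference −1.03, standard error 0.21, adjusted p = 0.821 from limma). The study lists Rnu3a, Rnu12 and Snora74a as lower in these same tumors, so they are not independent evidence. The labelling kit primes transcripts with and without a poly(A) tail, and the part of priming or labelling in the histone differences was not tested. Rnu7, the RNA of the U7 particle, named after its values were seen, was below the limit for testing, with 5.18, 4.40 and 5.37 in double KO tumors and 5.25, 5.53 and 5.56 in Apc KO tumors.

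Markers of other cell types were set beside these results. All 7 neutrophil markers had the lower mean in double KO tumors (median difference −1.55, 3 of 7 at an unadjusted limma p under 0.05, background 3.82%), with a mean log2 level of 7.22 to 8.49 in double KO tumors and 8.70 to 9.51 in Apc KO tumors. All 8 smooth muscle markers and 6 of 7 colonocyte markers had the higher mean in double KO tumors, with medians of 0.59 and 0.45, which were −0.23 and −0.02 without double KO tumor 2. The medians were 0.09 for 7 fibroblast, 0.26 for 6 T and B cell, 0.01 for 5 endothelium and 0.10 for 8 epithelium markers, and without double KO tumor 2 they were −0.11, 0.12, 0.06 and 0.13. Epithelium markers were lowest in Apc KO tumor 3 (11.75), the tumor with the lowest histone signals. The part of these cell types in the histone differences was not tested.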

How the data were processed

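Tumor tissue was isolated by laser microdissection, and RNA with an integrity number over 6 was labelled with a whole-transcript kit and hybridized. The authors ran RMA in GeneSpring GX (background correction, quantile normalization, summary of probes), as their methods and the submitters' notes state, and deposited log2 values. Neither the RMA version nor the probe annotation build is given in the sources used here.

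Gene symbols came from the platform annotation. Only sets with a symbol whose mean reached the 20th percentile (19506 of 35556) were tested, double KO minus Apc KO, in limma 3.58.1 (R 4.3.3; lmFit, eBayes, no covariates, two-sided, Benjamini-Hochberg adjustment over all of them). The study's methods apply a 20% cut-off without giving the measure. The fit was tested on simulated data. The sample descriptions carry a different number for each of the 6 tumors, which were taken as separate animals. If they are not, p-values measure only the spread between these samples.

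A set with several symbols was placed in the class of most of its symbols. Genes were named by rule: the 12 histone sets with the smallest limma p, in each class the 2 with the smallest p, the brightest and the dimmest, up to 10 without overlap, H1f1, and up to 3 genes per other list with Slbp and Npat, while histone sets outside it were added for completeness after their values were seen. The members, lists and rules were chosen with earlier results of these data known. Alternatives were no filter, a 40th percentile filter (7.15), median centring, further quantile normalization, trend and robust eBayes, the methods' t-test with equal variances, a block for the replicate number, leaving out each tumor, sets of 1 class only, and 1 set per gene. In the last, the brightest set naming each gene was kept, shared or not. Many genes thus fell on the same shared set, and 14 sets remained.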

Additional observations from a re-analysis of the deposited data

How the results depend on the processing

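The count of histone sets with an adjusted limma p under 0.05 was 0 under every alternative run. The count at an unadjusted p under 0.05 and higher in double KO tumors, 12 of 50, was 19 with median centring (2.08% of all tested sets), 21 with trend and robust eBayes (2.04%), 4 with the methods' t-test (2.1%), 5 of 14 with 1 set per gene (1.78%), and 2 to 21 with 1 tumor left out (the lowest without double KO tumor 1, the highest without Apc KO tumor 1). The count lower at that p, 0, was 0 to 1 with 1 tumor left out, the 1 being H2bc21 without Apc KO tumor 2. The 17 sets higher without overlap became 31 with median centring (6.61% of all tested sets) and 8 of 14 with 1 set per gene (5.25%). With 1 tumor left out they were 17 (without Apc KO tumor 3, 12.2%) to 44 (without double KO tumor 2, 9.49%). The 0 sets lower without overlap became 0 to 1 with 1 tumor left out. The cause of these changes was not tested, apart from the smaller number of sets with 1 set per gene. The medians over all sets and by class kept their sign, that over all sets staying between 0.19 and 0.40. The 21 named sets kept their direction and their side of the adjusted threshold in 271 of 271 comparisons. The smallest adjusted limma p of all sets tested was 0.606 in the main fit, so keeping that side says little.

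With the replicate number as a block, 7 of the 50 sets were higher at an unadjusted p under 0.05 (2.16% of all tested sets) and 0 had an adjusted p under 0.05. Deviations from the group means of same-numbered tumors correlated at −0.203, −0.0649 and 0.0915. Each deviation is from a mean of 3 tumors, so these correlations cannot show whether same-numbered samples share more than a number.

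The 3 tumors per genotype, the shared sets of near-identical genes and the 2 sets below the 20th percentile limit what can be said of single genes.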

Other observations

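Several histone genes outside the naming rule had probe sets. H4f16, an H4 gene, had a log2 signal of 10.07, 10.05 and 10.33 in double KO tumors, against 10.04, 9.94 and 9.66 in Apc KO tumors, without overlap (difference 0.27, standard error 0.14). H2aw, an H2A gene, had 11.31, 10.79 and 11.41 in double KO tumors, against 11.20, 10.74 and 11.09 in Apc KO tumors (difference 0.16, standard error 0.21). The germ-cell linker histone genes H1f6, H1f7 and H1f8 differed by 0.04, 0.12 and 0.13. The H2al sets, of H2A-like genes of the male germ line, differed by −0.08 to 0.04. These genes were chosen after their values were seen.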
